A study of Mus musculus with 36 samples.

Results

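The 29 genes described here build and tune inhibition by GABA, the main inhibitory transmitter of the adult brain. They were taken by name from a list of GABA receptor subunits, enzymes of GABA synthesis and breakdown, GABA transporters, chloride cotransporters and proteins of the inhibitory postsynapse and stand among 21887 protein-coding genes on the assembled mouse chromosomes. The study mapped by ChIP-seq where histone H3 carries an acetyl group on lysine 9 (H3K9ac) or on lysine 27 (H3K27ac), in the dorsal hippocampus of male mice aged 8 weeks. There were 4 conditions for each mark: ACSS2 knockdown with ethanol, ACSS2 knockdown left untreated, control vector with ethanol, and control vector left untreated. Ethanol was injected into the peritoneum at 2 g per kg as a 20% solution in saline, and untreated mice received no injection per the labels. Knockdown mice carried an AAV2/9 vector delivered by stereotaxic injection, in which a U6 promoter drives a short hairpin RNA against ACSS2 and a CMV promoter drives EGFP. The vector is not limited to 1 cell type by these promoters, the tissue was not sorted for EGFP, and no strain or time after ethanol is given in the sources used here. The contents of the control vector are likewise not given there. Each condition had 3 ChIP replicates per mark with about 20 mg of tissue from each mouse, but the authors deposited 1 peak list per mark and condition, so no value below has a replicate error and no test of a difference between conditions could be made.

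GABA-A receptors are chloride channels of several subunits, and which alpha, beta and gamma or delta subunits are joined decides their place at the synapse or outside it and their drug response. Delta-containing receptors sit mostly outside synapses and carry tonic inhibition, while GABA-B receptors act through G proteins. GABA is made from glutamate by the decarboxylases GAD67 (Gad1) and GAD65 (Gad2), and the chloride exporter KCC2 (Slc12a5) keeps the chloride gradient that makes the channels inhibitory. H3K9ac marks mainly active promoters, and H3K27ac marks active promoters and enhancers. ACSS2 makes acetyl-CoA, from which acetyl groups are put on histones, out of acetate, a product of ethanol oxidation. The design addresses whether these marks differ after ethanol and whether ACSS2 takes part. Since untreated mice received no injection per the labels, ethanol and the injection itself cannot be told apart in any comparison with untreated mice.

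The level used throughout is the number of covered bases, that is, of bases inside a peak within 2 kb, outward or inward, of the lower or upper end of a gene. A gene counted as covered in a comparison when at least 200 bp were covered in 1 of the 2 lists, and as lower or higher when the levels differed by at least 1.5-fold. The H3K9ac lists held 31042 to 42120 peaks and the H3K27ac lists 86110 to 119317, and for both marks ethanol-treated control mice had the shortest list and ethanol-treated knockdown mice the longest. The total covered length moved in the same way, with 24.1 Mb of H3K9ac in ethanol-treated knockdown, 21.7 Mb in untreated knockdown, 16.1 Mb in ethanol-treated control and 22.6 Mb in untreated control mice. No source used here states how many reads lie behind a list, so a difference between conditions in acetylation and a difference in the depth of the lists cannot be told apart. Peak lists hold no RNA level, so the knockdown itself was not checked.

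The promoters printed here show the range of sequence behind these genes. Each is 300 bases long, from 250 bases before a RefSeq start to 50 bases after it, on the GRCm38.p6 build and written 5′ to 3′ on the strand of the gene, with every CpG dinucleotide in capitals. The pair of Slc12a5 starts and Gad1 are printed because H3K9ac of ethanol-treated control mice left the first Slc12a5 start and the Gad1 start without a peak and covered less of the second Slc12a5 start than in the other lists, Gabrb1 because its start lies under a peak that it shares with Gabra4, and Gabbr2 because it holds the most CpG of all members. Slc32a1, Gabre and Gabra6 are printed as promoters without a peak in any of the 8 lists.
Slc12a5, first start, chr2:164960596-164960895, plus strand: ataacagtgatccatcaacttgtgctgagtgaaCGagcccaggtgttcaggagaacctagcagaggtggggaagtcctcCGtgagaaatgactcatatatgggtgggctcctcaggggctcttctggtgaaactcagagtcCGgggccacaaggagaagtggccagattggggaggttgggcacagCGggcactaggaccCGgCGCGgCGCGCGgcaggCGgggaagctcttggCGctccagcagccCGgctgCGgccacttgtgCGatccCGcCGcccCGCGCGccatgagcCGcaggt
Slc12a5, second start, chr2:164967738-164968037, plus strand: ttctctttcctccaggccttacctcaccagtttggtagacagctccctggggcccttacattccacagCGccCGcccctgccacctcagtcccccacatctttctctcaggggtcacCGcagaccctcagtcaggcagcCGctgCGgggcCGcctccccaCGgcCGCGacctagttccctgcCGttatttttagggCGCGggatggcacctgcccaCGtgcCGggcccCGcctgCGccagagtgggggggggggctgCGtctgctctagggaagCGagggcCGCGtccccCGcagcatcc
Gad1, chr2:70561879-70562178, plus strand: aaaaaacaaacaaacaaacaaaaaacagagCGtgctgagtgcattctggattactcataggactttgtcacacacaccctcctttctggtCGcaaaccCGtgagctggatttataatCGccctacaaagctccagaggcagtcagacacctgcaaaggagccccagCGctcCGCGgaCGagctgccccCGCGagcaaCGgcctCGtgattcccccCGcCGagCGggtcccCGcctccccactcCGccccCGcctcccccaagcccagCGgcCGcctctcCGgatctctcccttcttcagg
Gabrb1, chr5:71657671-71657970, plus strand: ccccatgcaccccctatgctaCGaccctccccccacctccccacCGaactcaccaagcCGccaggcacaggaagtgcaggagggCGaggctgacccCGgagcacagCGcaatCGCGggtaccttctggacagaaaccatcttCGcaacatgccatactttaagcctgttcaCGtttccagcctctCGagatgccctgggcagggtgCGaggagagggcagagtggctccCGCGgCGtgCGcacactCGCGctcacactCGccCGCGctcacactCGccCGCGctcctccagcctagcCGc
Gabbr2, chr4:46991665-46991964, minus strand: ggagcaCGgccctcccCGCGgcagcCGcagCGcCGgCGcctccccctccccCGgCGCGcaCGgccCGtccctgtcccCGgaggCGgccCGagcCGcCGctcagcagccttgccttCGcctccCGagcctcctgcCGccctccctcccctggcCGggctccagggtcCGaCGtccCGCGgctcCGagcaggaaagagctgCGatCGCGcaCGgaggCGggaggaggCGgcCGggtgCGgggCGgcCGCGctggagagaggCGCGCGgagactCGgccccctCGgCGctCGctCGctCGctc
Slc32a1, chr2:158610508-158610807, plus strand: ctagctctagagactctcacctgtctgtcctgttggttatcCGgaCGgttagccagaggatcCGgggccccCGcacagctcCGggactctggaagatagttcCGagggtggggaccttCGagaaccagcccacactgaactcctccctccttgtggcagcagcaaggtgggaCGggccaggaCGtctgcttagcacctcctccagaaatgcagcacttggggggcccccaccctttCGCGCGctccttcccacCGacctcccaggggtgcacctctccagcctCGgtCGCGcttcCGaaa
Gabre, chrX:72274672-72274971, minus strand: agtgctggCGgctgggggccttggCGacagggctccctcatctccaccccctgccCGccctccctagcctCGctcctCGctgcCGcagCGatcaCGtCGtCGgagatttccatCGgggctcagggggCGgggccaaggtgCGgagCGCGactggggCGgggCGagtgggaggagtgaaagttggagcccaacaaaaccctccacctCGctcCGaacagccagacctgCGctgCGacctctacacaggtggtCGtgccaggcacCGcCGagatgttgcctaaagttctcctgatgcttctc
Gabra6, chr11:42321023-42321322, minus strand: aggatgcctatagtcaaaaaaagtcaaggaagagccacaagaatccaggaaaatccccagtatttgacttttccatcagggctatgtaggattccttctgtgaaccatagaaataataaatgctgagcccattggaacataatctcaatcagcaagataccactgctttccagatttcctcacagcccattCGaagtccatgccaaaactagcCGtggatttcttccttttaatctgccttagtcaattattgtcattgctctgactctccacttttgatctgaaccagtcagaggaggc

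The RefSeq promoter table held 31 starts for 26 of the 29 members. Of these, 14 promoters of 12 genes overlapped a peak in all 8 lists, 8 promoters of 8 genes in 1 to 7 lists, and 9 promoters of 8 genes in none. The median number of CpG dinucleotides was 19.5 in the first class, 13 in the second and 4 in the third, against 7 over the 32851 promoters of the table. The GC content went the same way, with medians of 66.7%, 58.4% and 47.3%, against 52.7% over the table. Gabbr2 held 46 CpG and Gphn, the scaffold gephyrin, 42, and both promoters lay under peaks of both marks in every list. Gabarap, which encodes a receptor-trafficking protein, was also covered in every list with only 7 CpG. Gabre with 24 CpG, Gabrq with 23 and Slc32a1 with 17 had no peak in any list, so a CpG-rich promoter was not always covered. The GC box CCGCCC, read on both strands, was found in 16 of the 31 promoters (51.6%) and in 35.7% of all promoters. The E-box CACGTG was found in 1 member promoter, the second start of Slc12a5, and in 7.15% of all promoters. The cyclic AMP response element TGACGTCA was found in 0 of the 31, and in 1.79% of all promoters.

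**Figure D1:**
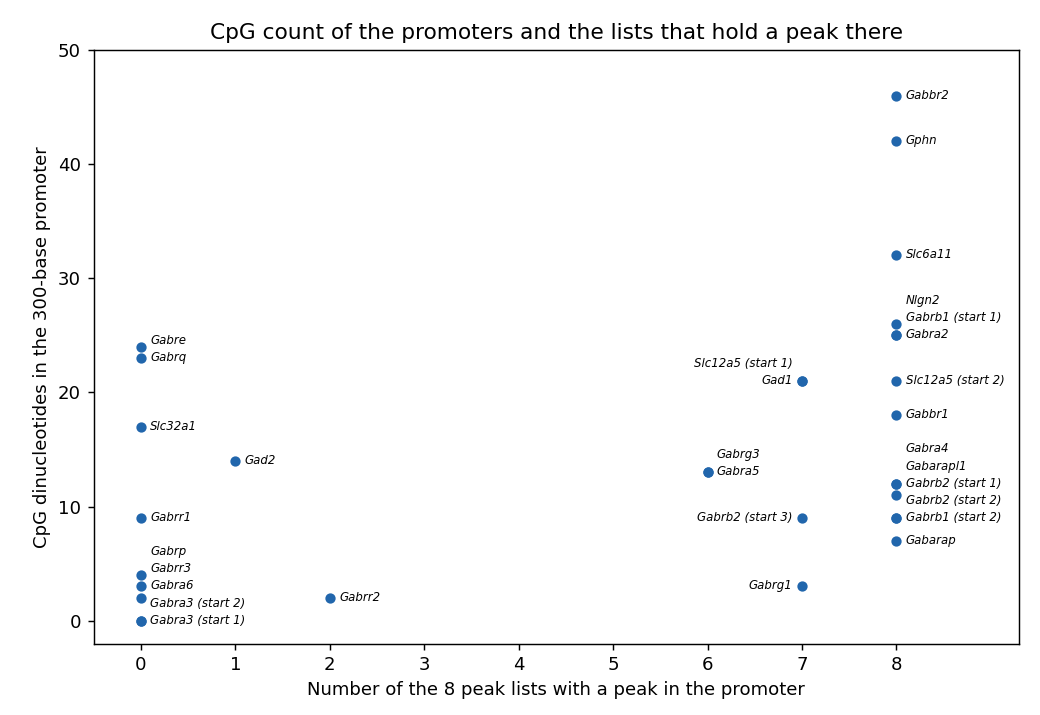
Number of CpG dinucleotides in each 300-base member promoter (vertical axis) against the number of the 8 peak lists with a peak in it (horizontal axis). Each point is 1 of 31 starts, and the start number is given where a gene has several. Gabre, Gabrq and Slc32a1 lie apart from the other uncovered promoters, with 17 to 24 CpG.

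There were 8 members with no covered base at their ends in any list. Gabra6, whose subunit belongs to cerebellar granule cells, had no peak of either mark at its ends or inside it. The same held for Gabre, Gabrp and Gabrq (the epsilon, pi and theta subunits), for Gabrr3 (the rho 3 subunit), and for Slc32a1, the vesicular GABA transporter of inhibitory neurons. Gabrr1 had 1 H3K27ac peak inside the gene in ethanol-treated knockdown and in ethanol-treated control mice, covering 193 and 147 bp, and no H3K9ac peak. Gphn is a matter of the windows: the lower end in the gene table lies upstream of the RefSeq start, and 2 kb around that start held 2857 bp of H3K9ac in ethanol-treated knockdown, 2682 bp in untreated knockdown, 2429 bp in ethanol-treated control and 2586 bp in untreated control mice.

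Gad2 and Gabra3 were at the limit of detection. Gad2 had a single H3K27ac peak of 174 bp in ethanol-treated knockdown mice, with a score that only 0.0553% of that list's peaks fell below, and no H3K9ac peak. Gabra3 had 214 bp of H3K9ac in ethanol-treated knockdown mice, 157 bp of H3K27ac in untreated knockdown mice, and 0 bp in the other lists of each mark. Of the other genes of inhibitory neurons, Sst, Vip and Dlx1 had 0 bp of both marks in every list. Lhx6, Dlx2 and Npy had 0 bp of H3K9ac and at most 387 bp of H3K27ac. Pvalb had 1 to 216 bp of H3K9ac and 23 to 203 bp of H3K27ac. Erbb4 went the other way, with 927 to 1320 bp of H3K9ac and 1223 to 1508 bp of H3K27ac. Counting any covered base, 2 to 5 of 8 inhibitory neuron markers had coverage, against 6 or 7 of 8 excitatory neuron markers. In whole tissue, fewer cells of a type and less acetylation per cell cannot be told apart. Of the cerebellar genes, Fat2 and Barhl1 were at 0 bp in every list, while Cbln3 had 1118 bp of H3K9ac in ethanol-treated knockdown, 1132 bp in untreated knockdown, 1274 bp in ethanol-treated control and 1530 bp in untreated control mice. H3K27ac at Cbln3 was 2045 bp in ethanol-treated knockdown, 1208 bp in untreated knockdown, 1384 bp in ethanol-treated control and 1411 bp in untreated control mice.

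**Figure D2:**
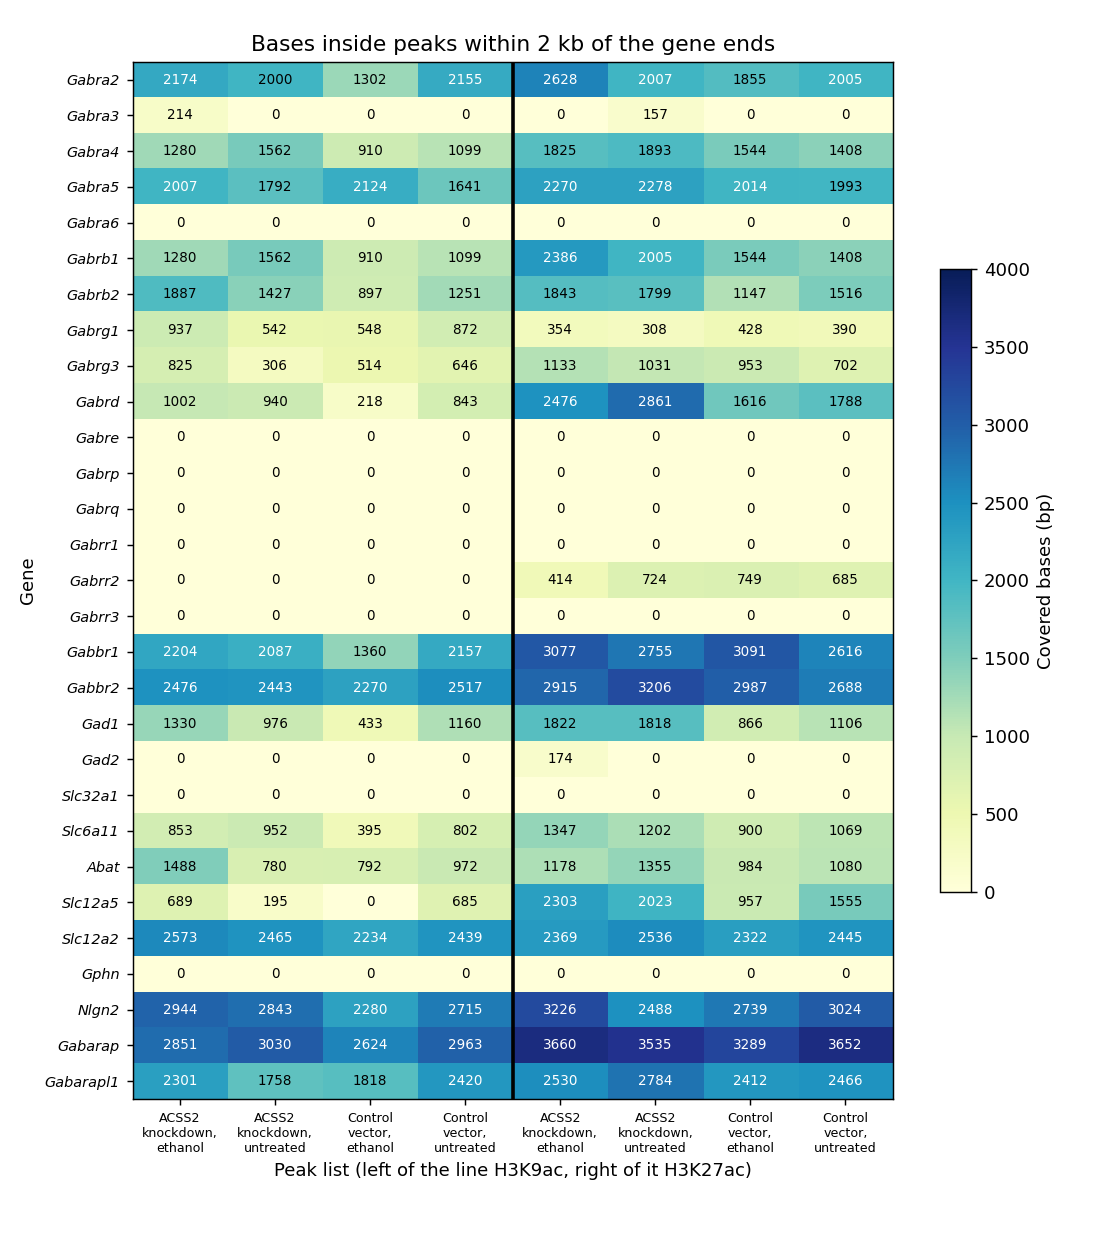
Covered bases within 2 kb of the gene ends for the 29 genes (rows) in the 4 H3K9ac lists (left of the line) and the 4 H3K27ac lists (right of it). Darker cells hold more covered bases, and Gabarap or Nlgn2 has the most in every column while 8 rows are at 0 throughout.

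Among the alpha subunits, Gabra2 had 2174 bp of H3K9ac in ethanol-treated knockdown, 2000 bp in untreated knockdown, 1302 bp in ethanol-treated control and 2155 bp in untreated control mice. The ethanol-treated control list was thus the low one of the 4, at 0.60 of untreated control. H3K27ac at Gabra2 was 2628 bp in ethanol-treated knockdown, 2007 bp in untreated knockdown, 1855 bp in ethanol-treated control and 2005 bp in untreated control mice, all within 1.5-fold.
Gabra4 and Gabrb1 start head to head on chromosome 5, their RefSeq starts lie under shared peaks, and 7 H3K9ac and 9 H3K27ac peaks over the 4 lists were counted for both. Their H3K9ac level was 1280 bp in ethanol-treated knockdown, 1562 bp in untreated knockdown, 910 bp in ethanol-treated control and 1099 bp in untreated control mice. These values are 1 measurement, not a pair. H3K27ac at Gabra4 was 1825 bp in ethanol-treated knockdown, 1893 bp in untreated knockdown, 1544 bp in ethanol-treated control and 1408 bp in untreated control mice. The far end of the longer Gabrb1 gene held 561 bp of H3K27ac in ethanol-treated knockdown mice and 0 bp in the other 3 lists. H3K27ac at both ends of Gabrb1 came to 2386 bp in ethanol-treated knockdown, 2005 bp in untreated knockdown, 1544 bp in ethanol-treated control and 1408 bp in untreated control mice. Gabra5, the alpha subunit of extrasynaptic receptors in the hippocampus, had 2007 bp of H3K9ac at its gene ends in ethanol-treated knockdown, 1792 bp in untreated knockdown, 2124 bp in ethanol-treated control and 1641 bp in untreated control mice. Around its RefSeq start, which lies inside the span of the gene table, the same lists gave 2026 bp in ethanol-treated knockdown, 1562 bp in untreated knockdown, 984 bp in ethanol-treated control and 1428 bp in untreated control mice. The ethanol-treated control list was therefore the highest at the gene ends and the lowest at the start. H3K27ac at the ends of Gabra5 varied little, with 2270 bp in ethanol-treated knockdown, 2278 bp in untreated knockdown, 2014 bp in ethanol-treated control and 1993 bp in untreated control mice.

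Gabrb2, a beta subunit of widespread synaptic receptors, had 1887 bp of H3K9ac in ethanol-treated knockdown, 1427 bp in untreated knockdown, 897 bp in ethanol-treated control and 1251 bp in untreated control mice. Its H3K27ac was 1843 bp in ethanol-treated knockdown, 1799 bp in untreated knockdown, 1147 bp in ethanol-treated control and 1516 bp in untreated control mice, so that ethanol-treated control mice were lowest for both marks.
Gabrd, the delta subunit of tonic inhibition, had 1002 bp of H3K9ac in ethanol-treated knockdown, 940 bp in untreated knockdown, 218 bp in ethanol-treated control and 843 bp in untreated control mice. The ethanol-treated control list held 1 H3K9ac peak at Gabrd, and its level was 0.26 of untreated control. H3K27ac at Gabrd was 2476 bp in ethanol-treated knockdown, 2861 bp in untreated knockdown, 1616 bp in ethanol-treated control and 1788 bp in untreated control mice, higher in both knockdown lists than in both control lists. Cfap74 reaches into the window at the upper end of Gabrd, and peaks there were not assigned to one of the pair.

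The gamma subunits had low levels. Gabrg1 had 937 bp of H3K9ac in ethanol-treated knockdown, 542 bp in untreated knockdown, 548 bp in ethanol-treated control and 872 bp in untreated control mice. Gabrg3 had 825 bp of H3K9ac in ethanol-treated knockdown, 306 bp in untreated knockdown, 514 bp in ethanol-treated control and 646 bp in untreated control mice. For both genes the untreated knockdown list was the lowest and the ethanol-treated knockdown list the highest. H3K27ac at Gabrg1 was 354 bp in ethanol-treated knockdown, 308 bp in untreated knockdown, 428 bp in ethanol-treated control and 390 bp in untreated control mice. At Gabrg3 it was 1133 bp in ethanol-treated knockdown, 1031 bp in untreated knockdown, 953 bp in ethanol-treated control and 702 bp in untreated control mice, and no pair of lists that was compared differed by 1.5-fold for either gene. Gabrr2 (rho 2) had no H3K9ac and 414 bp of H3K27ac in ethanol-treated knockdown, 724 bp in untreated knockdown, 749 bp in ethanol-treated control and 685 bp in untreated control mice. These bases lie at the lower end of the gene table, upstream of the RefSeq start, where coverage was 0 bp in ethanol-treated knockdown, 0 bp in untreated knockdown, 129 bp in ethanol-treated control and 155 bp in untreated control mice.

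The GABA-B subunits were among the best covered members. Gabbr1, the subunit that binds GABA, had 2204 bp of H3K9ac in ethanol-treated knockdown, 2087 bp in untreated knockdown, 1360 bp in ethanol-treated control and 2157 bp in untreated control mice. Gabbr2, the subunit that couples to the G protein, varied little at its ends, with 2476 bp in ethanol-treated knockdown, 2443 bp in untreated knockdown, 2270 bp in ethanol-treated control and 2517 bp in untreated control mice. These levels of Gabbr2 stood at percentiles 90.7 to 94.6 of all genes with H3K9ac coverage. H3K27ac at the ends was within 1.5-fold for both genes. Gabbr1 had 3077 bp in ethanol-treated knockdown, 2755 bp in untreated knockdown, 3091 bp in ethanol-treated control and 2616 bp in untreated control mice. Gabbr2 had 2915 bp of H3K27ac in ethanol-treated knockdown, 3206 bp in untreated knockdown, 2987 bp in ethanol-treated control and 2688 bp in untreated control mice. For each gene untreated control was the lowest list, and at Gabbr2 untreated knockdown was the highest.

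Gad1, whose enzyme makes most of the basal GABA of the brain, had 1330 bp of H3K9ac in ethanol-treated knockdown, 976 bp in untreated knockdown, 433 bp in ethanol-treated control and 1160 bp in untreated control mice. In ethanol-treated knockdown mice 1 peak of 2282 bp ran across the Gad1 start, where the ethanol-treated control list had peaks of 236 and 197 bp on either side of it and none over the 300-base promoter printed above. That promoter was covered over 206 bases in ethanol-treated knockdown, 300 bases in untreated knockdown, 0 bases in ethanol-treated control and 160 bases in untreated control mice. H3K27ac at the ends of Gad1 was 1822 bp in ethanol-treated knockdown, 1818 bp in untreated knockdown, 866 bp in ethanol-treated control and 1106 bp in untreated control mice, higher in both knockdown lists than in both control lists.
Slc6a11, the astrocytic GABA transporter GAT3, had 853 bp of H3K9ac in ethanol-treated knockdown, 952 bp in untreated knockdown, 395 bp in ethanol-treated control and 802 bp in untreated control mice. Beside it, the summed H3K9ac of 6 astrocyte markers was 5152 bp in ethanol-treated knockdown, 5351 bp in untreated knockdown, 2716 bp in ethanol-treated control and 5325 bp in untreated control mice, with Aqp4 at 0 bp in all 4 lists. Their summed H3K27ac was 9446 bp in ethanol-treated knockdown, 6786 bp in untreated knockdown, 6595 bp in ethanol-treated control and 6054 bp in untreated control mice. For H3K27ac, ethanol-treated control was thus not the lowest list. The part of cell composition in the Slc6a11 level was not tested. Abat, which breaks GABA down, had 1488 bp of H3K9ac in ethanol-treated knockdown, 780 bp in untreated knockdown, 792 bp in ethanol-treated control and 972 bp in untreated control mice, so that the first list was the highest. H3K27ac at Abat was 1178 bp in ethanol-treated knockdown, 1355 bp in untreated knockdown, 984 bp in ethanol-treated control and 1080 bp in untreated control mice, and at Slc6a11 1347 bp in ethanol-treated knockdown, 1202 bp in untreated knockdown, 900 bp in ethanol-treated control and 1069 bp in untreated control mice. For both genes these levels were higher in both knockdown lists than in both control lists, by less than 1.5-fold.

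Slc12a5 was, with Gabrg1, past 1.5-fold in all 4 H3K9ac comparisons. Its gene ends had 689 bp of H3K9ac in ethanol-treated knockdown, 195 bp in untreated knockdown, 0 bp in ethanol-treated control and 685 bp in untreated control mice. The gene has a pair of starts in RefSeq, and the windows around both starts together held 3129 bp in ethanol-treated knockdown, 2574 bp in untreated knockdown, 1211 bp in ethanol-treated control and 2603 bp in untreated control mice. At the first Slc12a5 start, a peak of 339 bp in ethanol-treated knockdown, of 195 bp in untreated knockdown and of 266 bp in untreated control mice had no counterpart in ethanol-treated control mice. At the second start, 1 Slc12a5 peak of 2648 bp in ethanol-treated knockdown and of 2514 bp in untreated knockdown mice faced separate peaks of 169, 501, 244 and 319 bp in ethanol-treated control mice. Untreated control mice had peaks of 208, 871 and 1380 bp over the same stretch of Slc12a5. H3K27ac at the gene ends was 2303 bp in ethanol-treated knockdown, 2023 bp in untreated knockdown, 957 bp in ethanol-treated control and 1555 bp in untreated control mice, and the second start lay under H3K27ac in every list. Part of the upper end window of Slc12a5 is shared with Ncoa5, and 1222 bp in ethanol-treated knockdown, 1049 bp in untreated knockdown, 555 bp in ethanol-treated control and 755 bp in untreated control mice of these H3K27ac values came from that end. The summed H3K9ac of 8 excitatory neuron markers was 18095 bp in ethanol-treated knockdown, 13647 bp in untreated knockdown, 8920 bp in ethanol-treated control and 12705 bp in untreated control mice. Its part in the Slc12a5 level was not tested.

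**Figure D3:**
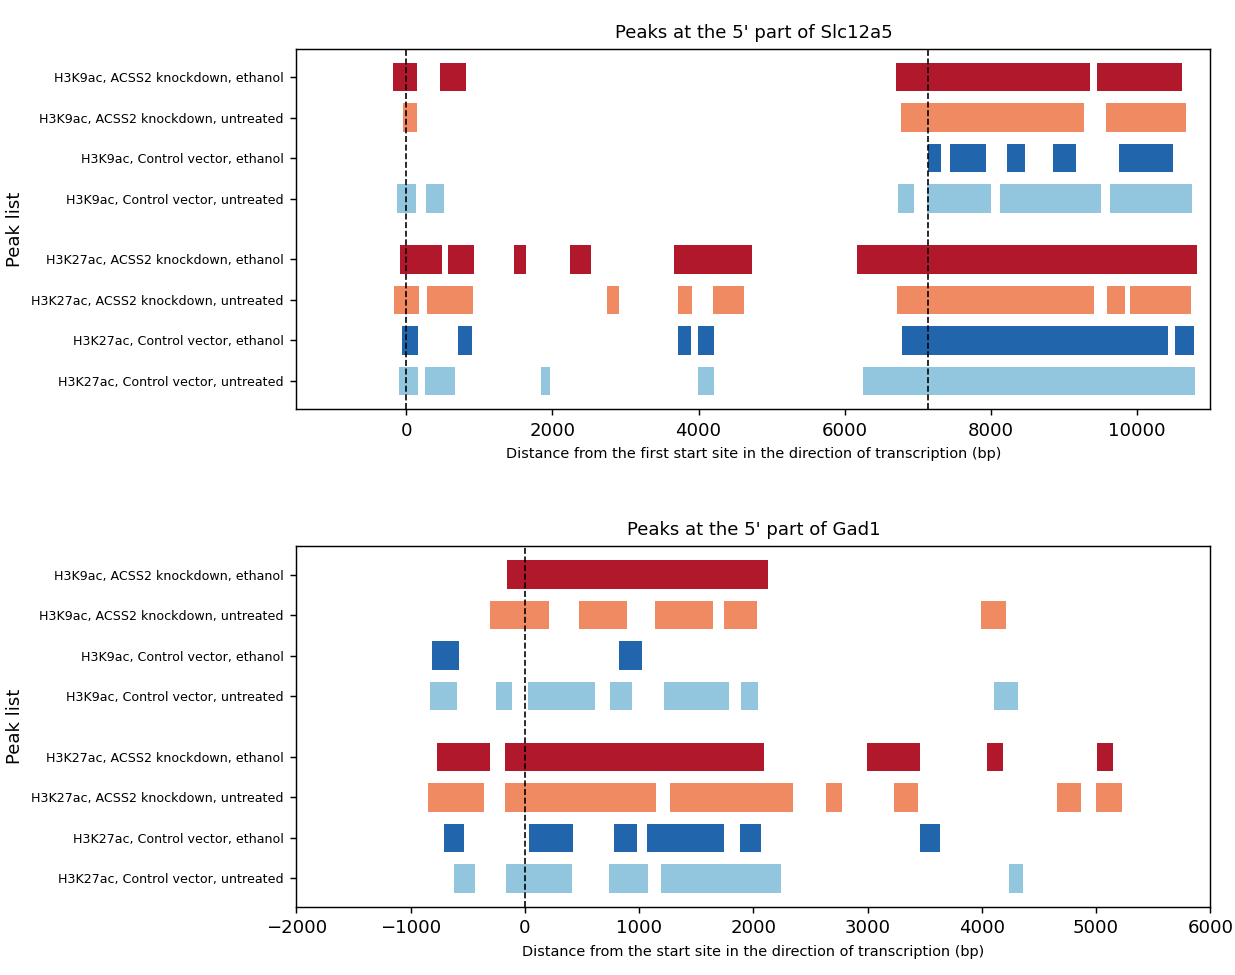
Peaks (bars) of the 8 lists at the 5′ part of Slc12a5 and Gad1, by distance in bp from the first RefSeq start, with starts as dashed lines. The H3K9ac list of ethanol-treated control mice has no bar at the first start of Slc12a5 and none over the start of Gad1.

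The other members varied little. Slc12a2, the chloride importer NKCC1, had 2573 bp of H3K9ac in ethanol-treated knockdown, 2465 bp in untreated knockdown, 2234 bp in ethanol-treated control and 2439 bp in untreated control mice. Its levels differ by little, and those of the next genes likewise. Nlgn2, the adhesion protein of inhibitory synapses, had 2944 bp in ethanol-treated knockdown, 2843 bp in untreated knockdown, 2280 bp in ethanol-treated control and 2715 bp in untreated control mice. Gabarap had 2851 bp of H3K9ac in ethanol-treated knockdown, 3030 bp in untreated knockdown, 2624 bp in ethanol-treated control and 2963 bp in untreated control mice, at percentiles 95.2 to 97.5 of all covered genes. Gabarapl1, its autophagy-linked relative, had 2301 bp in ethanol-treated knockdown, 1758 bp in untreated knockdown, 1818 bp in ethanol-treated control and 2420 bp in untreated control mice. H3K27ac lay between 2322 and 2536 bp at Slc12a2, between 2488 and 3226 bp at Nlgn2, between 3289 and 3660 bp at Gabarap and between 2412 and 2784 bp at Gabarapl1. None of these 4 genes passed 1.5-fold in any comparison of either mark. At both Nlgn2 and Gabarap another gene reaches into each end window (Tmem256 and Spem1 at Nlgn2, Ctdnep1 and Phf23 at Gabarap), so their peaks may belong to either.

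The first comparison set ethanol against no treatment in ACSS2 knockdown mice. For H3K9ac, 5 of 19 covered members were higher with ethanol (26.3%, 95% Wilson interval 11.8 to 48.8%) and 0 were lower, against 11.1% of all covered genes higher and 4.03% lower. The 5 were Abat (708 bp more, 1.91-fold), Gabrg3 (519 bp more, 2.70-fold), Slc12a5 (494 bp more, 3.53-fold), Gabrg1 (395 bp more, 1.73-fold) and Gabra3 (214 bp against 0). The median difference was 174 bp over the members and 80 bp over all covered genes. For H3K27ac, 0 of 19 were higher and 1 was lower, against 11.1% of all genes higher and 2.32% lower. The lower one was Gabrr2, with a difference of -310 bp. To match on coverage, covered genes were put in 10 bins by their mean level in both lists. Averaged over the members' bins, 10.7% of genes were higher and 4% lower for H3K9ac. For H3K27ac these matched shares were 6.94% higher and 1.27% lower. Intervals here and below cover counting error only and treat genes as independent, which neighbours such as Gabra4 and Gabrb1 are not.

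In control vector mice, ethanol was set against no treatment in the same way. For H3K9ac, 7 of 18 covered members were lower with ethanol (38.9%, interval 20.3 to 61.4%) and 0 were higher, against 29.2% of all covered genes lower and 1.32% higher. In order of size, the differences were -853 bp at Gabra2, -797 bp at Gabbr1, -727 bp at Gad1, -685 bp at Slc12a5, where the ethanol list had none, -625 bp at Gabrd, -407 bp at Slc6a11 and -324 bp at Gabrg1. With no base in the ethanol list, the Slc12a5 call was fixed once the gene counted as covered. The share of all genes lies inside the interval of the members' share. The median difference was -346 bp over the members and -287 bp over all genes. Of the 18, 17 had fewer covered bases with ethanol, as had 86.4% of all covered genes. For H3K27ac, Slc12a5 was the 1 member of 19 that was lower, with a difference of -598 bp, and 0 were higher, against 5.87% of all genes lower and 6.14% higher. Matched on coverage, 28.4% of genes were lower and 1.19% higher for H3K9ac, and 4.28% lower and 4.05% higher for H3K27ac.

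Both ethanol comparisons can be set side by side. Slc12a5 and Gabrg1 had fewer H3K9ac-covered bases with ethanol in control vector and more in the knockdown, each past 1.5-fold. They are 2 of 18 members covered in both (11.1%, interval 3.1 to 32.8%), against 5.63% of all genes. For H3K27ac 0 of 19 members did so, against 1.65% of all genes.

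**Figure D4:**
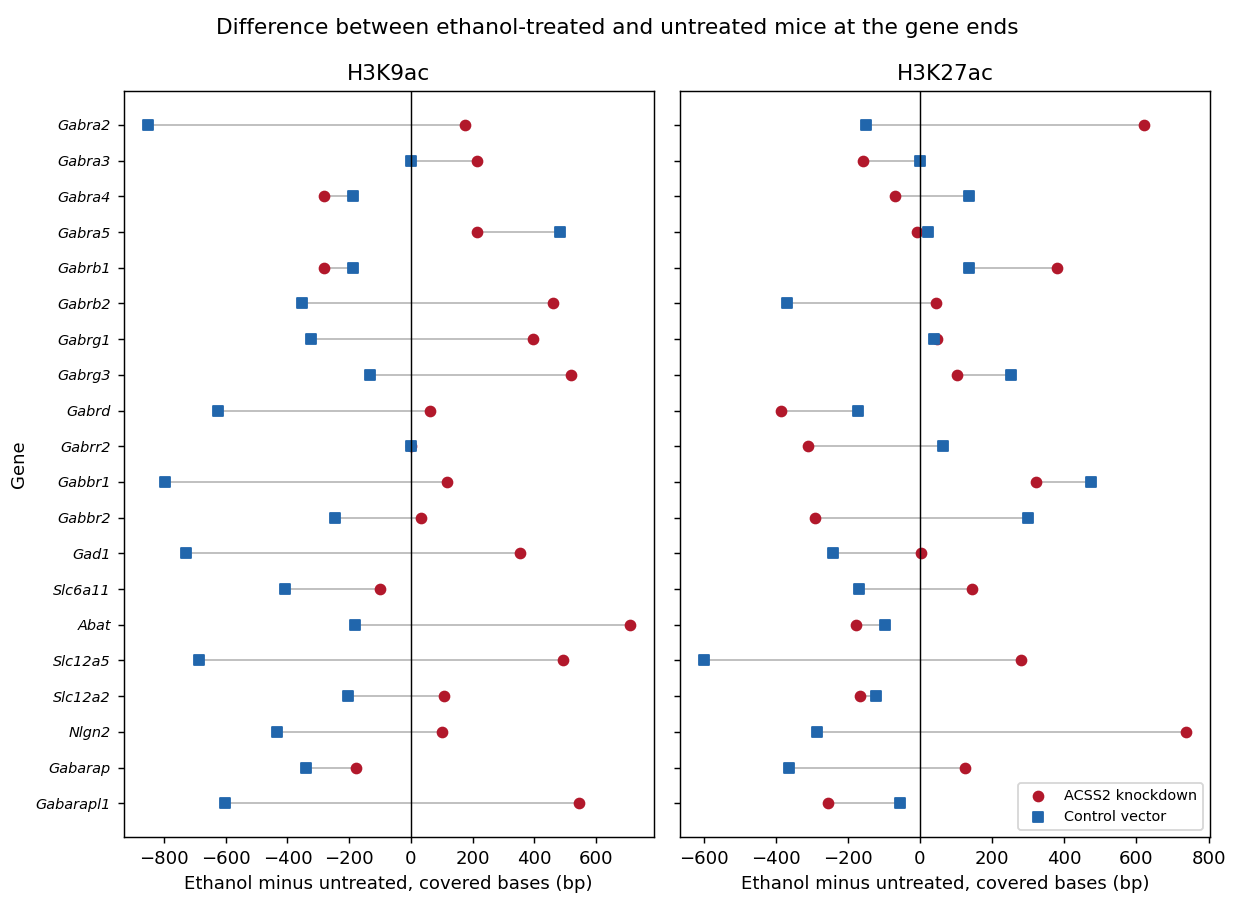
Ethanol minus untreated covered bases at the gene ends, in ACSS2 knockdown mice (circles) and in control vector mice (squares), for the genes with at least 200 bp in 1 list. For H3K9ac nearly every square lies left of 0, and only Gabra5 has a square clearly to its right.

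The third comparison set the knockdown against control vector in ethanol-treated mice. For H3K9ac, 11 of 19 covered members were higher in the knockdown (57.9%, interval 36.3 to 76.9%) and 0 were lower, against 31.9% of all covered genes higher and 1.34% lower. The largest differences were at Gabrb2 (990 bp more, 2.10-fold), Gad1 (897 bp more, 3.07-fold), Gabra2 (872 bp more, 1.67-fold), Gabbr1 (844 bp more, 1.62-fold) and Gabrd (784 bp more, 4.60-fold). Abat, Slc12a5, Slc6a11, Gabrg1, Gabrg3 and Gabra3 followed with 214 to 696 bp more. The median difference was 458 bp over the members and 322 bp over all genes, and 18 of the 19 had more covered bases, as had 88.5% of all genes. The 31.9% of all genes lies below the interval of the members' share, and with lists of equal length 9 of 18 members were higher (50%), against 25.8% of all genes. For H3K27ac, 5 of 19 were higher (26.3%, interval 11.8 to 48.8%) and 1 was lower, against 19.9% of all genes higher and 1.47% lower. Slc12a5 was 1346 bp higher (2.41-fold), Gad1 956 bp (2.10-fold), Gabrd 860 bp (1.53-fold), Gabrb1 842 bp (1.55-fold) and Gabrb2 696 bp (1.61-fold), while the difference at Gabrr2 was -335 bp. Of the Gabrb1 difference, 561 bp came from peaks at its upper end in ethanol-treated knockdown mice, away from the start. Matched on coverage, 31.8% of genes were higher and 1.46% lower for H3K9ac, and 15.5% higher and 0.838% lower for H3K27ac. For H3K27ac higher, both the 19.9% of all genes and the matched 15.5% lie inside the interval of the members' share. With lists of equal length the members' H3K27ac share was 2 of 19 (10.5%), against 15.2% of all genes.

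In untreated mice, the knockdown was set against control vector. For H3K9ac, 3 of 18 covered members were lower in the knockdown (16.7%, interval 5.84 to 39.2%) and 0 were higher, against 9.64% of all genes lower and 4.53% higher. The differences were -490 bp at Slc12a5, -340 bp at Gabrg3 and -330 bp at Gabrg1, and 9 of the 18 had fewer and 9 more covered bases. The Slc12a5 difference dropped below 1.5-fold in 4 of 6 other settings, among them the windows around its starts, with 2574 bp in untreated knockdown and 2603 bp in untreated control mice. Those at Gabrg3 and Gabrg1 held in 6 of 6. For H3K27ac, Gabrd (1073 bp more, 1.60-fold) and Gad1 (712 bp more, 1.64-fold) were higher among 19 and 0 were lower, against 10.8% of all genes higher and 2.74% lower. Matched on coverage, 8.31% of genes were lower and 3.85% higher for H3K9ac, and 7.12% higher and 1.5% lower for H3K27ac. The 4 comparisons share lists with each other, and the short ethanol-treated control list enters both the second and the third.

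Inside the genes, H3K27ac was concentrated in Gabbr2. The Gabbr2 gene of 329397 bp had 44412 bp of H3K27ac between its ends in ethanol-treated knockdown, 32319 bp in untreated knockdown, 15513 bp in ethanol-treated control and 27298 bp in untreated control mice. Away from the gene ends, Gabbr2 held 124 peaks in ethanol-treated knockdown, 104 peaks in untreated knockdown, 52 peaks in ethanol-treated control and 89 peaks in untreated control mice. Its covered bases made up 27.1 to 38.8% of all H3K27ac inside the 29 genes. The share of the gene that was covered was 13.5% in ethanol-treated knockdown, 9.81% in untreated knockdown, 4.71% in ethanol-treated control and 8.29% in untreated control mice, which is percentile 50.5 to 72.1 of all genes with coverage. Per length, Gabbr2 was thus not among the densest genes. Gabbr1 was denser, with 11801 bp in ethanol-treated knockdown, 9611 bp in untreated knockdown, 7642 bp in ethanol-treated control and 7588 bp in untreated control mice, or 26.8 to 41.6% of the gene. Slc12a5 had 11238 bp in ethanol-treated knockdown, 8726 bp in untreated knockdown, 7055 bp in ethanol-treated control and 7803 bp in untreated control mice. Gabrb1 had 8666 bp in ethanol-treated knockdown, 6907 bp in untreated knockdown, 3064 bp in ethanol-treated control and 5444 bp in untreated control mice, on 0.623 to 1.76% of a long gene.

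**Figure D5:**
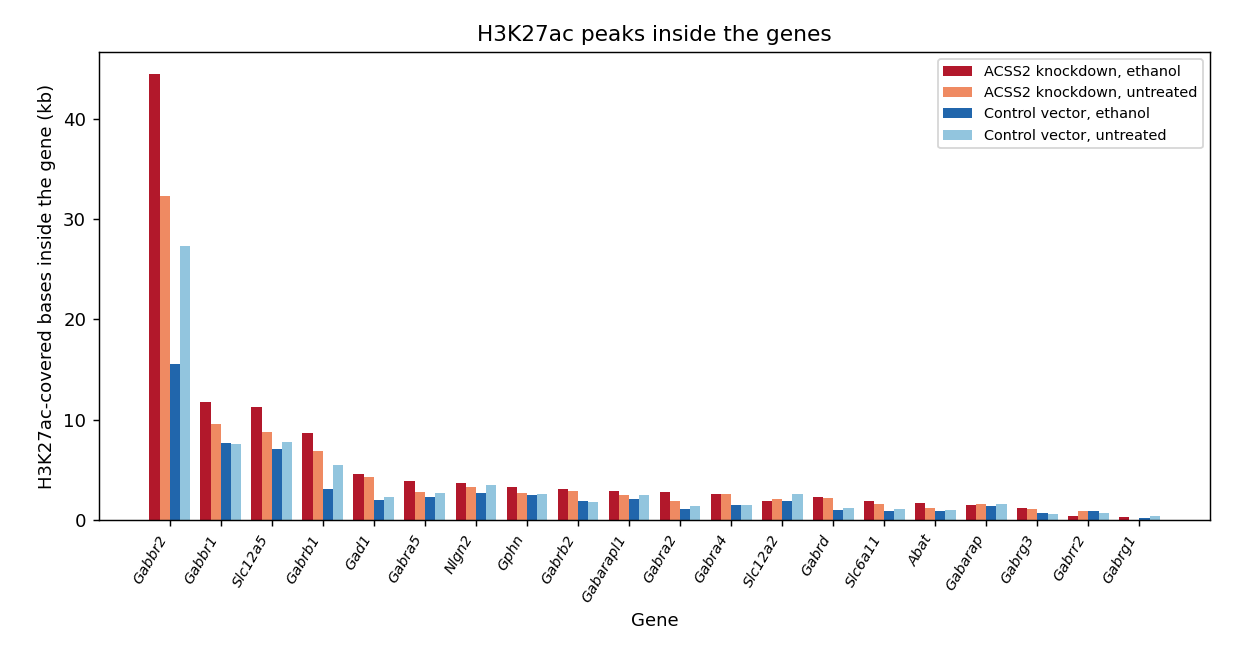
H3K27ac-covered bases inside each gene in kb (bars) in the 4 lists, for the 20 members with at least 200 bp in 1 list. Gabbr2 stands above all others, and its lowest bar is that of ethanol-treated control mice.

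With ethanol against no treatment in the knockdown, 1 of 20 members with H3K27ac inside the gene was higher (Gabrg1) and 1 lower (Gabrr2), against 16.1% of all genes higher and 2.92% lower. With peaks of a score of at least 5, 6 members were higher (30%), and with a minimum of 500 covered bases 0 were. In control vector mice, 3 of 20 were lower with ethanol (Gabbr2, Gabrb1 and Gabrg1, 15%) and 0 higher, against 8.79% of all genes lower and 7.5% higher. For the knockdown against control vector in ethanol-treated mice, 14 of 20 were higher (70%, interval 48.1 to 85.5%) and 1, Gabrr2, was lower, against 33.4% of all genes higher and 1.7% lower. The 14 were Gabbr2, Gabrb1, Slc12a5, Gabbr1, Gad1, Gabra2, Gabra5, Gabrd, Gabrb2, Gabra4, Slc6a11, Abat, Gabrg3 and Gabrg1. With both lists cut to 86110 peaks, 9 of 20 were higher (45%), against 23% of all genes. The shares of all genes inside genes were not matched on coverage or gene length. In untreated mice, 5 of 20 were higher in the knockdown (Gabra4, Gabrb2, Gabrg3, Gabrd and Gad1, 25%) and 1, Gabrg1, was lower, against 15.5% of all genes higher and 3.13% lower. Without Gabbr2, the H3K27ac inside the other members summed to 70121 bp in ethanol-treated knockdown, 59120 bp in untreated knockdown, 41808 bp in ethanol-treated control and 48129 bp in untreated control mice.

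Regions made by joining overlapping peaks of the 4 lists of a mark show where the lists differ. At the gene ends, 23 of 38 H3K9ac regions of the members were in all 4 lists (60.5%), against 60.6% of the regions at the ends of all protein-coding genes. For H3K27ac at the ends it was 26 of 60 (43.3%, interval 31.6 to 55.9%), against 55.7% over all genes. Away from the ends, 41 of 308 H3K27ac regions were in all 4 lists (13.3%, interval 9.97 to 17.6%), against 19.3% over all genes. Of the 308, 82 were in ethanol-treated knockdown alone (26.6%, interval 22 to 31.8%), against 23.3% over all genes, and 29 were missing only in ethanol-treated control mice (9.42%, interval 6.64 to 13.2%), against 5.15%. No member region of either mark was found in both ethanol lists and neither untreated list at the gene ends, a pattern of 0.626% of the H3K9ac and 2.08% of the H3K27ac regions there over all genes. Away from the ends 8 H3K27ac regions were in both ethanol lists only (2.6%, against 3.18% over all genes) and 9 in both untreated lists only (2.92%, against 1.94%). Several regions lie in 1 gene, so the intervals cover counting error only. Away from the ends, Gabbr2 held 124 of the members' 222 H3K27ac peaks in ethanol-treated knockdown and 104 of 189 in untreated knockdown mice. It held 52 of 104 in ethanol-treated control and 89 of 161 in untreated control mice. The region shares were not recomputed without Gabbr2, so those away from the ends cannot be read as a trait of the members as a set. Most H3K9ac peaks of the members also lay under H3K27ac in that condition: 82.4% in ethanol-treated knockdown, 84.8% in untreated knockdown, 91.1% in ethanol-treated control and 91.9% in untreated control mice. Of the H3K27ac peaks, the share that overlapped an H3K9ac peak was 18.1% in ethanol-treated knockdown, 20.7% in untreated knockdown, 27% in ethanol-treated control and 26.8% in untreated control mice.

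The other genes of inhibitory signalling, 32 genes in 4 lists, were covered at their ends in nearly all cases, with Kcnj3, Slc6a12 and Slc6a13 at 0 bp of both marks throughout. For H3K9ac, 5 of 29 covered genes were lower and 1 was higher with ethanol in control vector mice, against 29.2% of all genes lower and 1.32% higher. In the knockdown against control vector with ethanol 8 were higher and 0 lower, against 31.9% of all genes higher and 1.34% lower. The 5 lower and the 8 higher genes are smaller shares of the 29 than those of all genes. Shisa7, a GABA-A receptor partner, had 2145 bp in ethanol-treated knockdown, 1919 bp in untreated knockdown, 1106 bp in ethanol-treated control and 2083 bp in untreated control mice. Lhfpl4, which anchors GABA-A receptors with Nlgn2, had 2147 bp in ethanol-treated knockdown and 1120 bp in ethanol-treated control mice. Kcnj9, a potassium channel subunit opened by GABA-B receptors, had 727 bp in ethanol-treated control against 1805 bp in untreated control mice. Wnk3, a kinase that acts on the chloride cotransporters, went the other way, with 520 bp in ethanol-treated control against 0 bp in untreated control mice. For H3K27ac, 8 of the 29 were higher and 0 lower in the knockdown against control vector with ethanol, against 19.9% of all genes higher and 1.47% lower. Slitrk3, a postsynaptic adhesion protein, had 2658 bp in ethanol-treated knockdown and 1450 bp in ethanol-treated control mice. In the remaining comparisons 0 to 3 of the 29 passed 1.5-fold in either direction, where 2.32 to 11.1% of all genes did.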

How the data were processed

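The 8 peak lists of H3K9ac and H3K27ac ChIP-seq stand for 24 ChIP libraries, with 1 list per mark in each condition. The labels name the same list for the 3 replicates of a group, so the authors pooled them by a step that no source used here describes. Per the submitters' processing notes, MACS2, bedtools, STAR 2.5.2a and bcl2fastq were used on the GRCm38 (mm10) build, with no roles stated, and per the labels peaks passed a false discovery rate of 0.001. The deposited score of each peak was taken for a q-value on the −log10 scale, judging by its lowest value and steps, and served only for the stricter threshold and for ranks inside one list. The depth behind a list is unknown.

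Gene ends, names and promoters came from RefSeq tables of GRCm38.p6, and all 29 members matched the gene table. Bases under peaks were counted with Python 3.11.15 and numpy 2.4.6 within 2 kb of either gene end, inside the gene and over promoters. The counting was tested on simulated intervals at 2000 genes, some of which were given a 2-fold change. Covered bases were exact at 100% of the genes, and 100% of the changes were recovered. The simulated intervals held no noise, so this tests the code and not the real lists. For each mark 4 contrasts were made, and shares carry 95% Wilson intervals. All members are accounted for, each covered member is given with its values, and those past 1.5-fold are named in order of size. Members, gene lists and rules were chosen with earlier results of these data known. Input libraries and signal tracks were not analysed here.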

Additional observations from a re-analysis of the deposited data

Results flagged for a closer look

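For 2 genes the H3K9ac difference with ethanol went past 1.5-fold in opposite directions in the knockdown and in control vector. At Slc12a5 the ethanol difference in the knockdown (494 bp more) exceeded that in control vector (-685 bp) by 1179 bp. At Gabrg1 the ethanol difference in the knockdown (395 bp more) exceeded that in control vector (-324 bp) by 719 bp. With 1 list per group the difference between these effects was not tested. Around both RefSeq starts of Slc12a5 together, H3K9ac was 3129 bp in ethanol-treated and 2574 bp in untreated knockdown mice, which is within 1.5-fold, and 1211 bp in ethanol-treated and 2603 bp in untreated control mice, which is past it. The H3K9ac list of ethanol-treated control mice was the shortest of its mark, with 16.1 Mb covered against 22.6 Mb in untreated control mice. With lists of equal length, H3K9ac at Slc12a5 was 339 bp in ethanol-treated and 195 bp in untreated knockdown mice, and 0 bp in ethanol-treated and 266 bp in untreated control mice, and the Gabrg1 differences were 395 and -324 bp, as with the full lists. Gabrg1 stayed past 1.5-fold in 6 of 6 other settings in both comparisons, and Slc12a5 in 6 of 6 in control vector and 4 of 6 in the knockdown.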

How the results depend on the processing

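No paired analysis was possible because each group has 1 peak list, and for the same reason no replicate could be left out. Other settings were windows of 1 and 5 kb, the whole gene plus 2 kb, peaks with a score of at least 5, lists of equal length, a minimum of 500 covered bases, and, chosen after seeing the data, 2 kb around RefSeq starts and the settings used inside genes. Of 160 shares so recomputed, 144 stayed inside the 95% interval of the main share. For H3K27ac at the gene ends, members higher in the knockdown with ethanol came to 55% over the whole gene, 10.5% on lists of equal length and 6.25% around starts (1 to 11 members, against 5). Members lower with ethanol in control vector came to 0% with 5 kb, equal lists and starts (0 to 3, against 1), and around starts the share was also 0% for lower with ethanol in the knockdown and lower in the knockdown with ethanol (main 1 each) and for higher in untreated knockdown (main 2). Inside genes, members higher with ethanol in the knockdown came to 30% with a score of at least 5 and to 0% with 500 bases (0 to 6, against 1), those lower with ethanol in control vector to 5% with a score of at least 5 (1 to 3, against 3), those higher in the knockdown with ethanol to 45% on equal lists (9 to 13, against 14), and those lower in untreated knockdown to 0% with 500 bases. For H3K9ac the counts ran from 3 to 5 for higher with ethanol in the knockdown (main 5), from 6 to 10 for lower with ethanol in control vector (main 7), from 8 to 11 for higher in the knockdown with ethanol (main 11), and from 1 to 3 for opposite changes (main 2); higher with ethanol in control vector and in untreated knockdown ran from 0 to 2 (main 0). Peaks without a counterpart in the other lists were 13.3% of H3K9ac and 22% of H3K27ac peaks, and 19.7% and 26.4% when 50% of the shorter peak had to overlap. Of 36 gene calls, 19 held under every setting. Of 210 recomputed gene calls, 171 held, 38 dropped below 1.5-fold or below the minimum of 200 covered bases, and 1 reversed. The reversed call was H3K27ac at Slc12a5 with ethanol in control vector, which was 164 bp higher with a 5 kb window. That window takes in bases farther inside the gene and around it. The cause of the other shifts was not tested.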

Other observations

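Of the 264 H3K9ac peaks of the member genes over the 4 lists, 35 had no counterpart in any other list of the mark (13.3%, interval 9.69 to 17.9%), against 13.7% of the peaks of all protein-coding genes. Of the 874 H3K27ac peaks, 192 had none (22%, interval 19.3 to 24.8%), against 15.9% over all genes. These intervals cover counting error only and treat peaks as independent, which peaks of 1 gene are not. Gabbr2 alone held 52 to 124 H3K27ac peaks per list away from its ends. The H3K27ac share was not recomputed without Gabbr2, so its excess over all genes cannot be read as a trait of the members as a set. The H3K9ac regions away from the gene ends were mostly found in 1 list, 27 of 41 (65.9%, against 61.8% over all genes), while 8 of 38 at the ends were (21.1%, against 22.6% over all genes).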
